A study of Mus musculus with 6 samples.

Results

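Open chromatin that DNase-seq listed with Dex but not without it is described here: 230 regions out of 59069, chosen by their presence in lists of DNase I hotspots. DNase-seq cuts accessible DNA in nuclei with DNase I, and a hotspot is a stretch in which the sequenced cut ends, called tags, are dense. Hotspots of 6 libraries were merged where they shared at least 1 bp, and a region counted as Dex-only when all 4 libraries from Dex-treated cells listed it and neither library from cells without Dex did. All cells were primary macrophages grown from the bone marrow of C57BL/6J mice, and all received lipopolysaccharide (LPS), the bacterial wall component that activates macrophages, for 8 h. In the LPS group (2 libraries) nothing else was added. In the pre-treated group (2 libraries) Dex came ahead of the LPS, and in the late-treated group (2 libraries) the labels call it late, which is read here as added after LPS. Dex is the labels' short name, read here as the synthetic glucocorticoid dexamethasone. The labels give neither its dose nor the time between the treatments, and cells without LPS, or with Dex alone, were not analysed here. The macrophage identity of the cells was not checked, because no gene annotation of the files' build, mm9, was used.

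Glucocorticoids act through the glucocorticoid receptor, a transcription factor that enters the nucleus when it binds the hormone and then binds DNA. In macrophages it damps inflammatory genes and raises a set of anti-inflammatory ones. Some of its sites are already open before the hormone arrives, and others open as the receptor and its partner proteins bind. A region missing from a list may be closed or may be too weak to be listed, and a list of hotspots cannot separate these. Because the members were selected on their listing with and without Dex, that contrast is a description here and carries no test. The comparison of Dex given before with Dex given late was not used directly to choose them.

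The Dex-only regions were of moderate to low strength. Strength was read as the percentile of a region's maximum tag density, a value given by the authors, among the 25533 regions that all 4 Dex libraries listed, so that each library was ranked over the same regions. The median percentile of the 230 regions was 20.2 and 19.4 in the pre-treated libraries and 22.8 and 25.4 in the late-treated libraries. The middle 50% of the members lay between 8.50 and 40.3 in the pre-treated replicate 1 and between 9.68 and 44.3 in the late-treated replicate 2. The members thus reached from the weakest regions of the set to a single member near its top. By mean percentile over the 4 Dex libraries that member stood at 89.7 and the next at 76.4. In single libraries the lowest percentile of a member was 0.0215 and the highest 95.0. The number of members above the 50th percentile was 29 and 37 in the pre-treated libraries and 32 and 48 in the late-treated libraries.

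**Figure D1:**
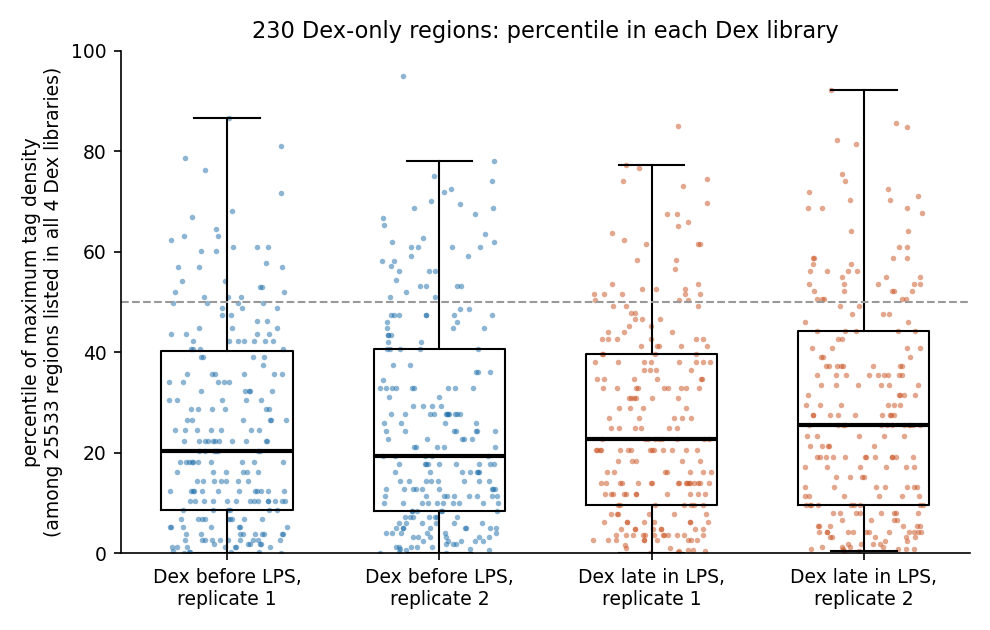
Percentile of maximum tag density (y axis) of the 230 Dex-only regions in each of the 4 Dex libraries (x axis), among the 25533 regions listed in all of them. Points are regions, boxes the middle 50%, thick lines the medians (20.2, 19.4, 22.8 and 25.4 from left to right), whiskers reach to 1.5 box heights and the dashed line is the 50th percentile; most members lie under it in all 4 libraries.

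In tag density itself, the members' medians were 10.3 and 11.8 in the pre-treated libraries and 10.8 and 13.3 in the late-treated ones. Over all 25533 regions these medians were 17.7, 19.4, 17.6 and 19.5 in the same order. No source states how densities were scaled between libraries. In each library every maximum density was a whole multiple of a fixed step, within 0.1 of a step. The weakest member was 8 steps high in both libraries numbered 1, and 10 and 11 steps high in the pre-treated and late-treated libraries numbered 2. The median member was 25 to 31 steps high. A few steps are therefore a larger part of a low member's height than of a strong one's. How precisely the timing is known at each strength was not tested.

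The members were also narrower than regions listed in every library. The merged regions had a median width of 844.5 bp (from 316 to 2066 bp), against 1119 bp for the 25091 regions listed in all 6 libraries. The 212 regions listed by all 4 Dex libraries and 1 LPS library were narrower still, with a median of 764 bp. A merged region spans the hotspots of every list that holds it, and these sets were held by different numbers of lists. The length that hotspots covered in a member had medians of 622 and 778 bp (pre-treated) and 561.5 and 780.5 bp (late-treated). Over the regions listed in all 6 libraries they were 847 and 975 bp (pre-treated) and 771 and 939 bp (late-treated). In both sets this length followed the replicate number more than the timing of Dex. Nearly all members were a single hotspot, since at most 7 of the 230 held 2 hotspots in any Dex library. The ratio of maximum to average density had medians of 2.36 to 2.50 in the members, 2.33 to 2.47 in those 212 regions and 2.52 to 2.65 in the 25533 regions.

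The strongest member, chr7:117259759-117261207, had a maximum density of 51.5 and 62.6 in the pre-treated libraries and 46.8 and 50.9 in the late-treated libraries. Its percentiles were 86.6, 95.0, 85.0 and 92.2, so the groups overlapped. The next, chr4:132518429-132520495, is also the widest member. It reached 30.1 and 29.2 with Dex before LPS and 34.0 and 39.9 with Dex late, where the percentiles were 71.7 and 72.0 against 76.6 and 85.5. Both late-treated libraries were above both pre-treated ones. In width it went the other way: hotspots covered 1649 and 2045 bp of it in the pre-treated libraries and 1094 and 1763 bp in the late-treated ones, at width percentiles of 90.7 and 92.7 against 76.4 and 89.4.

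Among the 10 strongest members, those of chromosomes 1, 4, 11 and X had higher percentiles in both late-treated libraries. One of chromosome 17 had higher percentiles in both pre-treated libraries, and the groups overlapped in the other 5. On chromosomes 1 and 11 the separation was narrow. The highest pre-treated and lowest late-treated percentiles were 69.4 and 69.6 on chromosome 1, and 67.4 and 67.5 on chromosome 11. The densities of these members overlapped, at 21.0 and 27.7 against 27.6 and 35.4 on chromosome 1, and 23.9 and 26.6 against 26.0 and 39.0 on chromosome 11. Over all regions above the 50th percentile, 9.98% had both late-treated libraries above and 10.7% both pre-treated libraries. One member on the late side was chrX:157041697-157043125. Its density was 22.2 and 23.5 in the pre-treated libraries and 30.4 and 36.3 in the late-treated ones, at percentiles of 60.2 and 61.0 against 73.1 and 82.3. The authors' z-score, at 49.8 and 51.7 against 65.4 and 66.9, also separated the groups in this direction. So did the width percentile, at 66.7 and 57.2 against 72.2 and 78.5, though the covered lengths themselves overlapped. The limma test across all 25533 regions gave it an unadjusted p of 0.0805 for density. The opposite case was chr17:28654281-28655888, with densities of 41.2 and 33.8 in the pre-treated libraries and 31.6 and 26.6 in the late-treated ones (unadjusted p = 0.329). Neither passed an unadjusted threshold of 0.05, although the groups did not overlap in either region.

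The comparison of Dex before LPS with Dex late in LPS asks whether the strength of these regions differs with when Dex is given. All cells had 8 h of LPS, so an earlier start of Dex may also mean a longer exposure. The order of treatment and the length of exposure cannot be told apart here. No Dex-only region passed the test of this comparison. The test was limma on normal scores of within-library ranks, with 2 libraries a group and Benjamini-Hochberg adjustment over the 25533 regions. For maximum density, z-score and width alike, 0 of the 230 members and 0 (0%) of all regions had an adjusted p under 0.05. The lowest adjusted p was 0.99995 for density, 0.778 for z-score and 0.849 for width. At an unadjusted p under 0.05, density picked 31 of the 230 members (13.5%) where it picked 4.01% of all regions. For z-score this was 40 members (17.4%) against 5.11% of all regions, and for width 28 members (12.2%) against 4.75%. These shares were not matched for strength. A mean density percentile up to 25 was held by 127 of the 230 members and by 6140 of the 25533 regions. Of the 31 members, 10 were higher with Dex before LPS and 21 with Dex late. All regions picked by density leaned the same way, with 445 higher with Dex before LPS and 579 with Dex late. None of these passed the adjustment. With replicate 2 of the pre-treated group left out, 19 regions passed for density, 2 of them members, under the assumption that the lone library varies like the others. With log2 density in place of ranks, 16 members had an unadjusted p under 0.05, against 1.92% of all regions. With ranks from 2 against 2 libraries, an exact permutation test of one region cannot give a p under 0.333.

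Counted without a model, the groups did not overlap in 105 of the members. In 65 of the 230 (28.3%) both late-treated libraries were above both pre-treated ones, where this held for 13.7% of all 25533 regions. In 40 (17.4%) both pre-treated libraries were above, where this held for 13.4% of all regions. In the other 125 the groups overlapped. The median difference between the groups, pre-treated minus late-treated, was -1.83 percentile points in the members and 0.03 in all regions. It was -0.36 points without replicate 2 of the late-treated group, in which the members ranked highest. Ranked over each library's whole list, which differ in length, the members' median was 1.28 points and that of all regions 1.99, and 17 members (7.39%, against 3.84% of all regions) then had both late-treated libraries above and 39 (17.0%, against 15.1%) both pre-treated libraries. The size of the late-sided balance thus moved with 1 library and with the set that was ranked.

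**Figure D2:**
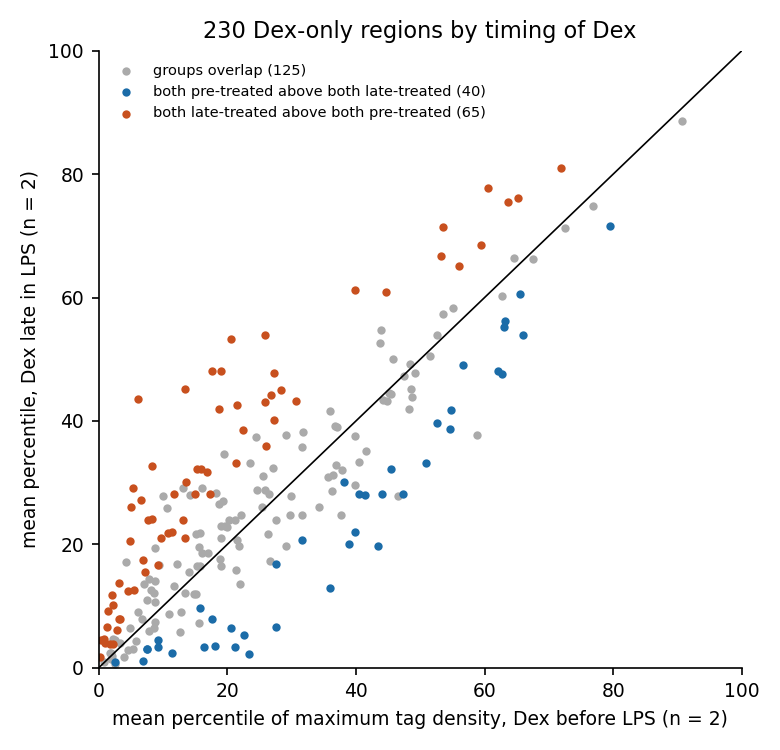
Mean percentile of maximum tag density of each of the 230 Dex-only regions with Dex before LPS (x axis, n = 2 libraries) and with Dex late in LPS (y axis, n = 2 libraries). Colours mark the 65 regions where both late-treated libraries lay above both pre-treated ones, the 40 with the opposite order and the 125 that overlapped; the diagonal is equality.

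The rule that defines the members may not treat the groups alike. Replicate 1 of the late-treated group has the shortest list, with 29347 hotspots, and its lowest z-score was 11.6, against 9.34 and 9.16 in the pre-treated lists and 8.98 in the other late-treated list. Whether regions that are weak with Dex late were dropped more readily than those weak with Dex before LPS was not tested. Both pre-treated libraries and neither LPS library listed 565 regions, of which 335 were not in both late-treated lists. The reverse was seen for 93 of 323 regions. Such counts can differ through the lists' limits or through the timing of Dex, and these cannot be told apart here. Of the 269 regions listed by exactly 3 Dex libraries and no LPS library, 190 were missing from replicate 1 of the late-treated group. Without that library 420 regions would be Dex-only. When all lists were shortened to the 29347 hotspots of highest z-score, 586 regions were Dex-only, with 116 (19.8%, against 13.2% of all regions ranked) on the late side and 93 (15.9%, against 13.0%) on the pre-treated side. Their median difference was -0.45 points. The cut also shortened the LPS lists, from 48084 and 51834 hotspots, so regions in the full LPS lists could count as Dex-only. Only 135 of the members were Dex-only at equal length. The 586 regions are thus mostly not the members, and their balance is no direct check on the rule. How much of the late-sided balance among the members comes from the rule was not tested.

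Strong members lay further from the lists' lower limits than weak ones. A member's margin, the smallest excess of its z-scores over the lowest z-score of each Dex list, had a median of 20.1 in members with a mean percentile above 50 and of 1.49 in those up to percentile 25. Of the 28 members with a mean percentile above 50, both late-treated libraries were above in 10 (35.7%) and both pre-treated libraries in 8 (28.6%). Over all 12496 regions above that percentile, the shares were 9.98% and 10.7%. The median size of the difference, whatever its direction, was 7.94 points in these members and 2.82 points in those regions. In the 75 members between percentiles 25 and 50 the late side held 16 (21.3%) and the pre-treated side 14 (18.7%), near the 17.1% and 15.5% of all regions in that range. In the 127 weaker members they held 39 (30.7%) and 18 (14.2%), against 17.4% and 16.4% of all regions up to percentile 25. The imbalance between the late and the pre-treated side was thus largest among the weak members. Against all regions above percentile 50, the members there exceeded the shares on both sides, and most so on the late side. Strength was not matched within this range. The 10 strongest members reached from 89.7 down to 65.5, and the rest of the 28 lay between that and percentile 50. Over all regions the median size of the difference was 2.82 points above percentile 50 and 7.38 points between 25 and 50.

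The difference between the groups was set beside that between replicates. A mean of 2 libraries varies less than a single library, so these values are not on equal terms. Over the 230 members the median size of the difference between group means was 6.90 points. Replicates of the pre-treated group differed by a median of 6.10 points and those of the late-treated group by 8.51. Over all 25533 regions the corresponding values were 4.21, 7.18 and 7.75. The order of the libraries differed as well. Across the 230 members, the rank correlation (Spearman's rho) was highest between the pre-treated libraries, at 0.822, and lay between 0.704 and 0.764 for the other 5 pairs. Across all 25533 regions it was highest between libraries with the same replicate number, at 0.940 and 0.927, and 0.915 and 0.896 within the groups. These correlations are across regions of the same libraries, which share depth and preparation, and are given as a description.

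The 10 members with the largest difference toward Dex late were spread over 7 chromosomes. The largest was chr3:98178008-98179302. Its maximum density was 6.59 and 9.11 in the pre-treated libraries and 13.6 and 19.5 in the late-treated ones. Its percentiles were 3.80 and 8.46 against 36.4 and 50.6. This region was also wider with Dex late, with 760 and 747 bp covered in the pre-treated libraries and 1022 and 1294 bp in the late-treated ones. Its z-scores were 12.9 and 16.1 against 23.8 and 37.9. All 3 readouts separated the groups, with unadjusted limma p-values of 0.000664, 0.00534 and 0.00255 for density, width and z-score.

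A weaker region, chr4:55579966-55580787, showed the same pattern in all 3 readouts. Its densities were 7.41 and 7.59 in the pre-treated libraries and 12.0 and 14.2 in the late-treated ones, and hotspots covered 363 and 294 bp against 557 and 821 bp. The unadjusted p was 0.00213 for density. At chr4:134244004-134244892 the densities were 9.06 and 12.1 against 14.8 and 20.8. At chr1:108237968-108239392 they were 10.3 and 11.4 against 15.2 and 20.4, while its covered lengths overlapped, at 1251 and 1258 bp against 1154 and 1424 bp. These 3 regions had both late-treated libraries above both pre-treated ones in density percentile, which the choice of the 10 required. Not every region of the 10 was as even. At chr8:36199359-36200335 the densities were 7.41 and 9.49 with Dex before LPS and 8.80 and 20.4 with Dex late. In percentiles this is 6.72 and 9.92 against 11.7 and 53.6, so its difference of -24.3 points rested mainly on replicate 2 of the late-treated group, and the densities themselves overlapped. At chr2:11390016-11392014, 1 of the 5 widest members, the coverage was 251 and 983 bp against 409 and 1998 bp, and the groups overlapped in width and z-score.

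**Figure D3:**
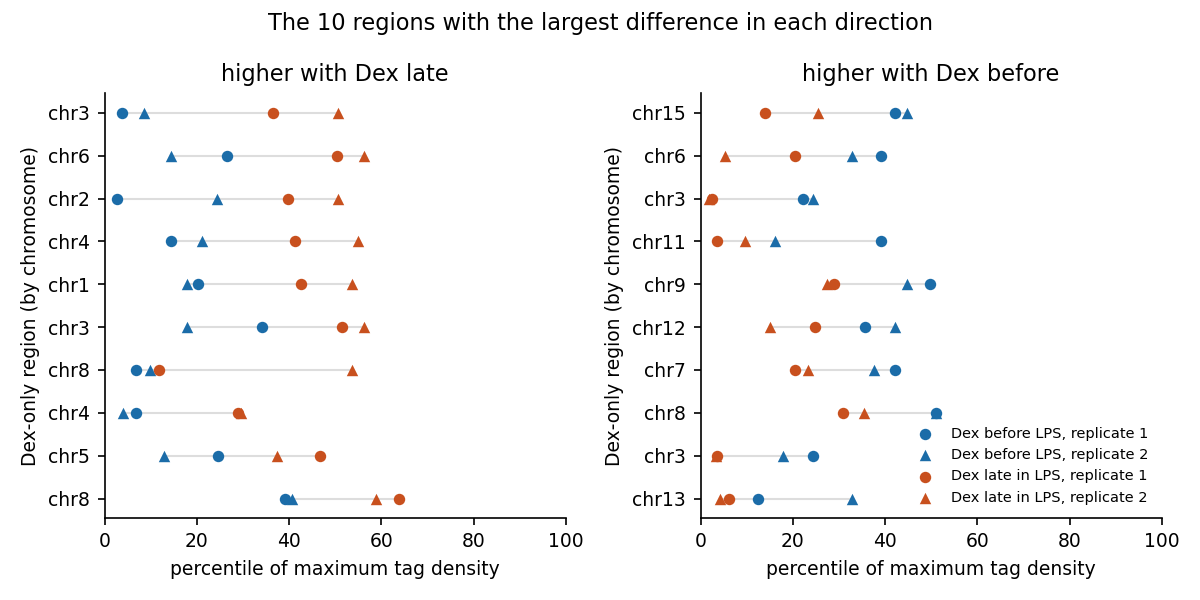
Percentile of maximum tag density (x axis) in each of the 4 Dex libraries for the 10 Dex-only regions with the largest difference toward Dex late (left) and toward Dex before LPS (right), sorted by the size of the difference and labelled by chromosome (y axis). Blue marks Dex before LPS and orange Dex late; circles are replicate 1 and triangles replicate 2, and the colours do not cross at any region because regions without overlap were picked.

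In the opposite direction, the member with the lowest p was chr3:50537167-50538005. Its densities were 10.7 and 12.9 in the pre-treated libraries and 6.40 and 6.64 in the late-treated ones. The percentiles were 22.3 and 24.3 against 2.55 and 1.83. Its hotspots covered 689 and 838 bp against 407 and 499 bp and had z-scores of 20.8 and 23.9 against 12.3 and 11.2, and so stood near the lower end of the late-treated lists. The unadjusted p was 0.000565 for density and 0.000389 for z-score. A region listed in all 6 libraries, chr3:50540501-50541972, lies 2.50 kb away and did not share this order. Its densities were 7.69 and 7.29 with LPS alone, 24.3 and 27.7 with Dex before LPS, and 29.6 and 31.4 with Dex late.

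The largest difference toward Dex before LPS in percentile was at chr15:54963630-54964384. There the densities were 15.2 and 17.8 against 9.20 and 13.3, at percentiles of 42.1 and 44.8 against 13.9 and 25.4. At chr6:127286369-127287315 they were 14.4 and 14.8 against 10.4 and 8.41. At chr3:131425873-131426719 they were 11.1 and 11.4 against 6.80 and 7.53 (unadjusted p = 0.00298). These regions were picked among members whose density percentiles did not overlap, so that separation was set by the choice. In number, 17 members (7.39%) were higher in both pre-treated libraries by density, z-score and width together, against 3.06% of all 25533 regions. By the same count 33 (14.3%) were higher in both late-treated libraries, against 4.13%. These readouts come from the same tags and are no independent support for each other. The sign of the density difference matched that of the z-score in 196 of the 230 members and that of the width in 170.

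The Dex-only regions lay about as near to regions listed in all 6 libraries as those regions lay to each other. The nearest region listed in all 6 libraries lay a median of 8.94 kb away, and for 88 members (38.3%) it lay within 5 kb. Regions listed in all 6 libraries were 9.66 kb from their own nearest neighbour of that kind, and 35.2% had one within 5 kb. Other members were far: the nearest Dex-only region was a median of 2444 kb away, though 20 members had another within 5 kb. Members were found on all chromosomes but Y. Chromosome 1 held most, with 20 (8.70% of members, against 6.29% of the regions listed in all 4 Dex libraries). Apart from Y, chromosomes 8, 16 and 18 held fewest, with 6 each (2.61%, against 5.02%, 3.66% and 2.79% of those regions). Chromosomes 2 and 11 held 10 each (4.35%, against 8.24% and 7.36%), and chromosome 3 held 17 (7.39%, against 4.99%). Chromosome Y held only 50 of those regions (0.196%). These shares were not tested.

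The shared regions around the members stood higher with Dex as well. There are 647 regions listed in all 6 libraries within 50 kb of a Dex-only region. Their median difference in percentile, Dex minus LPS alone and ranked here among the 25091 shared regions, was 3.73 points, against -0.08 for all shared regions. All 4 Dex libraries were above both LPS libraries in 177 of the 647 (27.4%), where this held for 9.12% of all shared regions. Both LPS libraries were above all Dex libraries in 24 (3.71%), against 9.49% of all. The difference was largest close to the members. Within 5 kb the median was 12.5 points over 105 regions, at 5 to 20 kb it was 5.14 over 214, at 20 to 50 kb it was 1.84 over 328, and beyond 500 kb it was -0.14. This is the contrast that chose the members, in other regions of the same libraries, and it was not tested. Shared regions near the members were also weaker with LPS alone, at a median percentile of 32.8 within 5 kb against 49.5 for all.

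**Figure D4:**
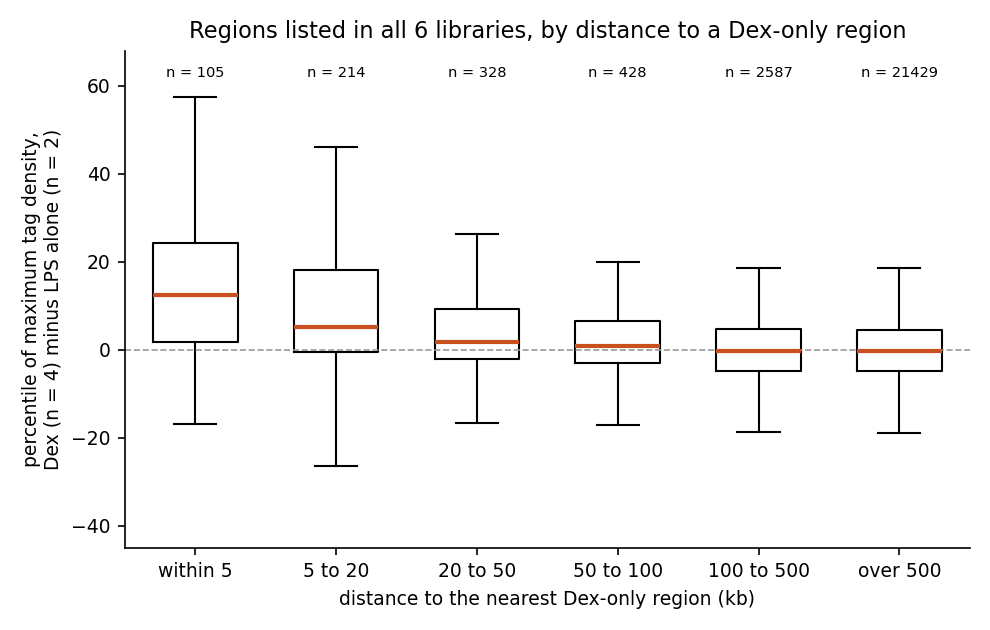
Difference in percentile of maximum tag density, the mean of 4 Dex libraries minus the mean of 2 LPS libraries (y axis), for regions listed in all 6 libraries, by distance to the nearest Dex-only region (x axis). Boxes are the middle 50%, lines the medians, whiskers reach to 1.5 box heights and points beyond them are not drawn; medians go from 12.5 within 5 kb to -0.14 beyond 500 kb.

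The pattern was seen with both timings of Dex. Within 5 kb the median against LPS alone was 11.0 points with Dex before LPS and 11.1 with Dex late, and within 50 kb it was 3.53 and 4.58. Both values use the same LPS libraries. Within 50 kb of a member, the largest difference was at chr9:48552709-48553897, 10.0 kb away. Its maximum density was 6.02 and 6.94 with LPS alone, 45.3 and 31.5 with Dex before LPS, and 33.2 and 37.2 with Dex late. A second region nearby, chr9:48547860-48548927, had 6.02 and 7.98, then 30.5 and 26.2, then 25.2 and 28.3. At chr1:161818491-161820327, 0.12 kb from a member, the densities were 7.02 and 6.25, then 28.8 and 36.1, then 34.8 and 43.4. In each of these regions, which were picked for their values, the 4 Dex libraries were above both LPS libraries.

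Runs of at least 3 members with gaps of at most 100 kb occurred at 5 places and held 19 of the 230 regions. The gene annotation at hand was of another build, so which genes lie near the runs is not stated here. The groups overlapped in 12 of these 19 members, where this held for 72.9% of all 25533 regions. On chromosome 17 (28647329 to 28655888) the groups overlapped in 2 of 3 members, and the member at 28652382 had densities of 34.6 and 27.3 with Dex before LPS and 31.2 and 26.6 with Dex late. On chromosome X (137039944 to 137048609) they overlapped in 3 of 4. The widest member there, at 137039944, had 20.6 and 20.5 against 22.4 and 20.8. It covered 1016 and 1065 bp in the libraries of replicate 1 but 1807 and 1745 bp in those of replicate 2.

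On chromosome 19 (23052980 to 23132737) the groups overlapped in 4 of 5 members. The strongest, at 23130783, had densities of 37.5 and 31.5 in the pre-treated libraries and 34.8 and 28.8 in the late-treated ones. The exception, at 23102565, had 10.3 and 12.1 against 8.40 and 7.53. The run on chromosome 13 (60927311 to 60979305) leaned toward Dex before LPS in all 4 members, by 5.81 to 17.4 points, with 2 of them not overlapping. The run on chromosome 4 (108879881 to 108883661) leaned toward Dex late in all 3, with differences of -4.57 to -11.9 points, again with 2 not overlapping. On chromosome 4 the z-score and width percentiles leaned the same way in all 3 members. On chromosome 13 they did not in every member: the z-score percentile of the member at 60943737 differed by -7.26 points, toward Dex late. No member of a run passed the test after adjustment.

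**Figure D5:**
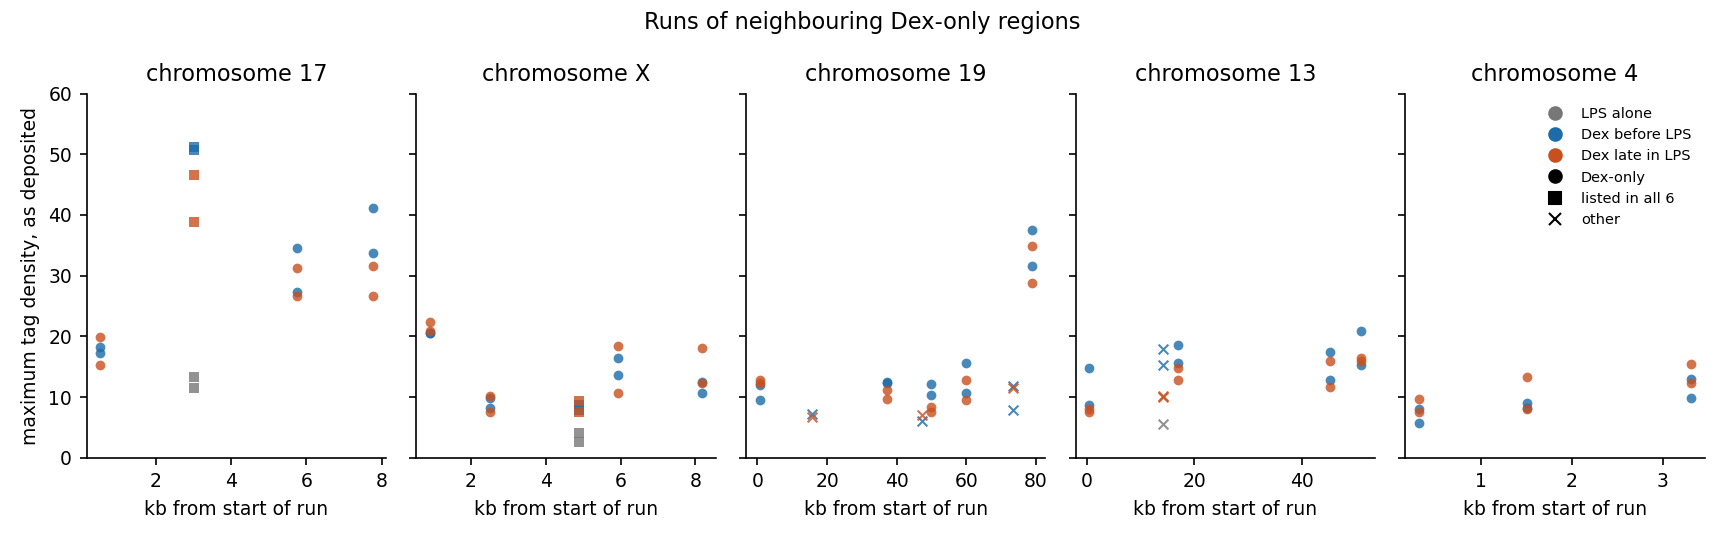
Maximum tag density as deposited (y axis) of the regions in the 5 runs of Dex-only regions, by distance from the start of the run (x axis, kb; a panel per chromosome). Circles are Dex-only regions, squares regions listed in all 6 libraries and crosses other regions; grey is LPS alone, blue Dex before LPS and orange Dex late, and blue and orange circles mix at most positions.

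The edge of the definition can be seen in the regions on either side of it. The members nearest to a lower limit were chr4:154591419-154591784, at a z-score of 9.34 in replicate 1 of the pre-treated group where the list began at 9.34, and chr10:20645514-20646248 and chr10:20642103-20642812, both at 11.6 in replicate 1 of the late-treated group. Just outside, 212 regions were listed by all 4 Dex libraries and by 1 LPS library, 104 by replicate 1 and 108 by replicate 2. The strongest, chr17:28556565-28558111, had densities of 32.9 and 26.6 with Dex before LPS and 33.6 and 33.7 with Dex late, and 6.25 in replicate 2 of the LPS group. Another of the strongest, chr12:3284042-3285111, had 21.4 and 28.5, then 24.0 and 34.1, and 7.98 in replicate 2 of the LPS group. Each of these missed the definition by its listing in 1 LPS library. The 212 regions were weaker than the members, with median percentiles of 12.8 to 16.2 in the 4 Dex libraries. Both late-treated libraries were above in 40 of the 212 (18.9%, against 13.7% of all 25533 regions). Both pre-treated libraries were above in 29 (13.7%, against 13.4% of all).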

How the data were processed

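DNase-seq libraries of 6 samples were compared, 2 in each of 3 groups taken from the sample titles. The labels' protocols describe a digest of nuclei with 80 U/ml DNase I (3 min, 37 °C) and single-end reads of 51 bp. CASAVA and mm9 are named in the submitters' processing notes. Which programs aligned reads and called hotspots, and at what threshold, is not given in the sources used here. Per the file headers, each deposited list gives a hotspot's position, maximum and average tag density (a signal), a z-score (the deposited score) and a p-value, which the authors computed and which was not used here. Positions are printed as deposited, and whether they count from 0 or 1 is not stated. Total tag numbers are unknown, and the lists hold between 29347 and 51834 hotspots.

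Regions, members and ranks were computed with Python 3.11.15 and pandas 2.3.3. A region's value in a library is that of its highest hotspot, and its width there is the length its hotspots cover. Ranks over the 25533 regions of the 4 Dex lists were turned into normal scores and tested with limma 3.58.1 (R 4.3.3), pre-treated minus late-treated, with Benjamini-Hochberg adjustment across all 25533 regions. The procedure was tested on simulated data. The members and lists were chosen with earlier results of these data known. Named regions are the 10 strongest by mean percentile, the 10 with the largest difference in each direction without overlap, the 5 widest, runs, and regions at the edge of the definition; the neighbouring shared regions were picked for their values. Nothing in the labels ties replicates to separate mice or cultures, so p-values reflect only how far these libraries spread, and that spread may be technical. No genome of the mm9 build was used, so sequences, motifs and nearby genes are not analysed here.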

Additional observations from a re-analysis of the deposited data

How the results depend on the processing

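The number of Dex-only regions was 205 with hotspots up to 500 bp apart merged, 233 with a cover of at least 50% (with 157 of the 230 among them), 348 with a common minimum z-score of 11.6 and 586 with lists of equal length, and 244 to 420 with each library left out in turn, the highest without replicate 1 of the late-treated group. Of the 230 regions, 135 were Dex-only at equal length and 150 with the common minimum. Both settings also removed hotspots from the LPS lists, so regions in the full LPS lists could count as Dex-only there. Regions with an adjusted limma p under 0.05 for density numbered 0 to 19 of 25533 with each Dex library left out in turn, where the lone library of a group is assumed to vary like the others. The 19, without replicate 2 of the pre-treated group, included 2 members. They numbered 0 in every other alternative run for density, and in all those for z-score and width. Members at an unadjusted p under 0.05 for density numbered 53 of 586 at equal length (9.04%, against 3.44% of all regions) and 16 with log2 density in place of ranks. At equal length they numbered 92 for z-score (15.7%, against 4.61%) and 61 for width (10.4%, against 4.39%). The replicate numbers are not stated to pair libraries. With the replicate block, 0 regions passed the adjustment and 51 members had an unadjusted p under 0.05 for density (8.29% of all regions). Differences between replicates 1 and 2 correlated at 0.428 between the Dex groups over 25533 regions. The members' median difference was -2.72 to -0.36 with each Dex library left out and 1.28 with ranks over whole lists, whose lengths differ and where all regions had 1.99. With a library left out, 2 libraries stand against 1, a looser criterion that more of all regions meet. Every pre-treated library left was then above in 61 to 82 members (26.5 to 35.7%, against 30.8 to 33.3% of all regions). Every late-treated library left was above in 89 to 108 (38.7 to 47.0%, against 30.4 to 33.5%). At equal length both pre-treated libraries were above in 93 (against 13.0%) and both late-treated libraries in 116 (against 13.2%). With ranks over whole lists both late-treated libraries were above in 17 (7.39%, against 3.84%). In both number-matched pairs (replicate block) the pre-treated library was above in 64 (27.8%, against 27.8% of all). The late-treated library was above in both pairs in 87 (37.8%, against 27.5%). The shared neighbours' median was 7.61 within 20 kb. The cause of these shifts was not tested. Lists of equal length for the timing results were chosen after seeing the data. The planned searches for motifs and nearby genes were not run.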
